A study of Mus musculus with 3 samples.

Results

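The 38 genes described here encode the enzymes of glycolysis, of lactate and pyruvate conversion and of the tricarboxylic acid (TCA) cycle, with the kinases that switch off pyruvate dehydrogenase. They were taken by gene symbol from a fixed list, Hk1 to Mdh2 in pathway order, and all 38 were found among the 32531 gene rows of the count tables. The RNA came from untreated adult mice of the C57BL/6J strain that carry the Kcnip2-EGFP/Rpl10a transgene (line NIDA115), and was taken from cerebral cortex by translating ribosome affinity purification (TRAP). In this method a ribosomal protein fused to green fluorescent protein is made under the regulatory sequences of 1 gene, in this line Kcnip2, and an antibody pulls down the tagged ribosomes with their messenger RNA. All 3 libraries are immunopurified (IP) replicates of 1 group and of 1 transgenic line, so no comparison between conditions could be made. No input or unbound library was analysed here, so the values are levels within the immunoprecipitate, background RNA included, and not enrichment over whole cortex. Whether each replicate is a different animal is not said in the labels, so the p-values cover the spread of these 3 libraries alone, part or all of which may be technical.

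Glycolysis splits glucose to pyruvate in the cytosol and yields ATP and NADH. Lactate dehydrogenase interconverts pyruvate and lactate, and the pyruvate dehydrogenase complex passes pyruvate into the mitochondrial TCA cycle, which supplies the reducing equivalents for respiration. Neurons rely heavily on oxidative metabolism and can take up lactate as a fuel, and several steps are run by isozymes whose genes differ in use between neurons and glia.

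Depth in replicates 1, 2 and 3 was 11602248, 13635132 and 14174384 counts in genes, and 12130 genes reached 1 CPM (counts per 1000000 counts of the TMM-scaled library size) in all 3. The series title names neurons, and all 9 neuronal markers, Eno2 of the 38 genes among them, passed 1 CPM in each library, with a summed level of 39881 to 46176 CPM. The 12 astrocyte markers were also all detected, with sums of 2936 to 4665 CPM, as were 7 of 8 oligodendrocyte markers, with sums of 489 to 668 CPM. Sums were 40.4 to 61.9 CPM for microglia (4 of 8 detected) and 19.8 to 32.5 CPM for endothelial and mural cells (5 of 8). In bulk RNA, fewer cells of a type and less RNA per cell cannot be told apart.

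As a list, the enzyme genes lay high in the immunoprecipitate. All 38 passed the count filter and 37 reached 1 CPM in every library, the exception being Hk2. Together they took 1.23%, 1.27% and 1.21% of the gene counts in replicates 1, 2 and 3. Levels of different genes are compared here as CPM per kilobase of union exon, the summed length of all annotated exons of a gene, and values are mean ± SD over n = 3 libraries. On that scale the median of the 38 genes was 40.8 ± 0.529 CPM per kilobase, against 4.51 ± 0.0376 for the 12098 genes tested that had a length. Of the 38, 31 lay above the median of all genes tested, and 21 lay above the 90th percentile. The 14 glycolytic genes had a median of 35.7 ± 2.03, the 10 lactate and pyruvate genes 53.2 ± 1.82 and the 14 TCA cycle genes 36.3 ± 1.70 CPM per kilobase.

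The levels spanned a wide range. Gapdh was highest at 796 ± 45.6 CPM per kilobase, followed by Ldhb at 609 ± 33.3, Mdh1 at 444 ± 46.3 and Aldoa at 416 ± 26.1. Below these 4 came a gap to Eno2 at 137 ± 8.08, Pkm at 114 ± 4.24 and Mdh2 at 110 ± 4.44. Gapdh was also highest under the other treatments of length given below, but the order of Ldhb, Mdh1 and Aldoa changed. Without division by length, Aldoa was at 1211, Mdh1 at 1139 and Ldhb at 957 CPM. At the other end, 6 genes lay under 2 CPM per kilobase: Suclg2, Pfkl, Idh2, Eno1, Pcx and Hk2. In the order from highest to lowest, 19 of the 37 neighbouring pairs kept their order in all 3 libraries and 18 did not. Mdh1 stood above Aldoa in 1 library of 3, and of the 9 neighbouring pairs in the run from Cs at 74.7 ± 2.51 down to Dld at 50.9 ± 4.79, only Idh3g over Pdhb kept its order in all 3.

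**Figure D1:**
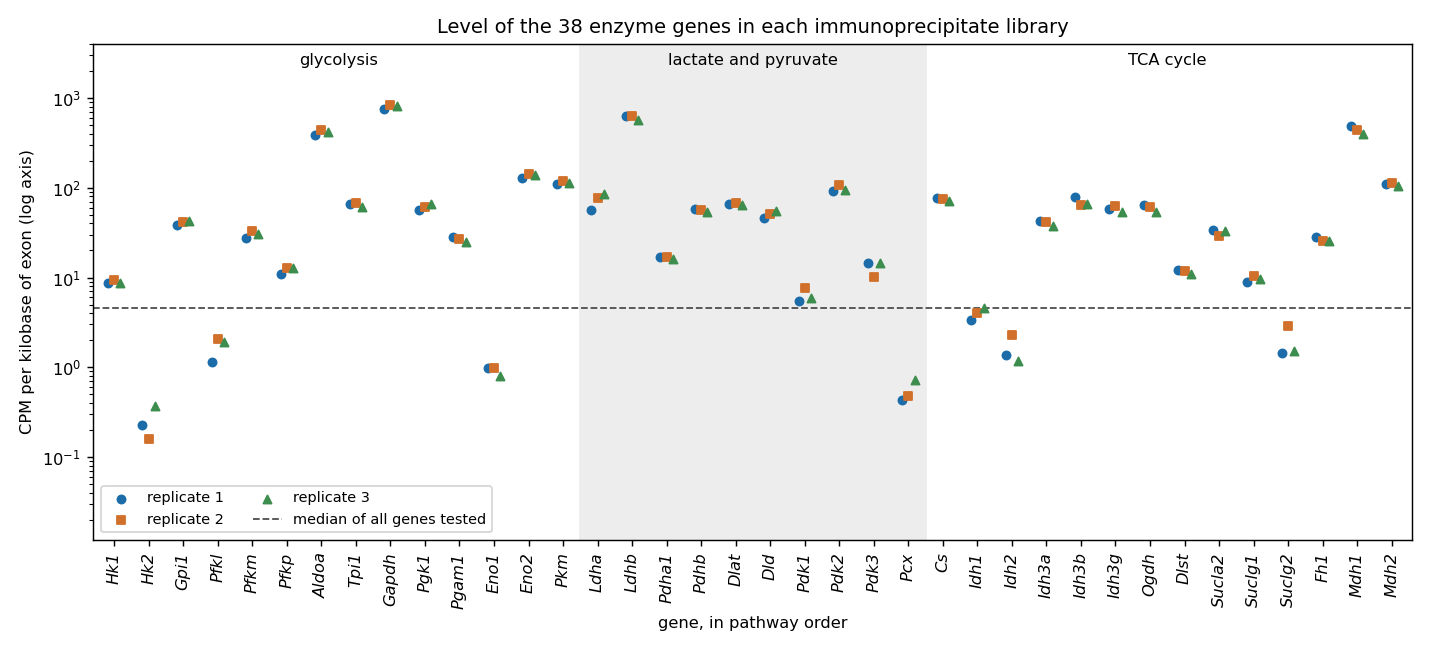
Level of each of the 38 genes in CPM per kilobase of exon on a log axis, 1 point per library, in pathway order with shading behind the lactate and pyruvate genes. The dashed line is the median of all genes tested, 4.51. Gapdh, Ldhb, Mdh1 and Aldoa stand highest and Hk2 lowest, and the 3 replicates of most genes lie close together.

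How far a count can be assigned to 1 gene differed between the pathways. Each principal transcript (the main isoform in GENCODE M21, build GRCm38) was divided into overlapping stretches of 50 bases, and those that also occur in the transcripts of another annotated gene were counted. Of the 38 genes, 21 shared no stretch (55.3%, against 51.6% of all genes with a transcript), and 13 shared over 10% (34.2%, against 22.6%). Among these were 8 of the 14 glycolytic genes and 1 of the 14 TCA cycle genes, Suclg2 at 21.8%. The highest shares were 82.5% in Gapdh, 72.2% in Eno1 and 68.0% in Pgk1, and in 9 of the 13 the gene that shared most is a processed pseudogene, an intronless copy of a messenger RNA. In Pfkp and Pdha1 it is instead a neighbour on the opposite strand, Pitrm1 and Map3k15, whose exons overlap theirs by 748 and 603 bases. No source used here gives the strand setting of the counter, and 10 of the 38 genes have such overlaps, whose reads cannot be told apart. The count tables list 13.8% to 19.4% of all tallied reads as not uniquely aligned, and these are in no gene's count.

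The copies can be seen in the sequences, which were read from GENCODE M21 transcripts. The coding sequence of Gapdh (chromosome 6, 125161715 to 125166467, minus strand) is 999 bases long, and the pseudogene Gm7336 (chromosome 7, 51746647 to 51747878, plus strand) holds all of it with 100% identity. The first 60 coding bases and the same stretch of the copy are shown, all in lower case because no base differs.
Gapdh: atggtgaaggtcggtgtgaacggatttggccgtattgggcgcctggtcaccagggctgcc
Gm7336: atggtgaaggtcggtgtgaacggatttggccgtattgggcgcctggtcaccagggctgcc
Pgk1 (chromosome X, 106187100 to 106203699, plus strand) likewise matches Pgk1-rs7 (chromosome 12, 10898986 to 10900240, minus strand) over 1250 of its 1251 coding bases. Coding bases 2 to 61 and their copy are shown.
Pgk1: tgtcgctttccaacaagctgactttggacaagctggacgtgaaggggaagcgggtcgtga
Pgk1-rs7: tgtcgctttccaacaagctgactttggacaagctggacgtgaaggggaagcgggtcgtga
The isozymes, in contrast, can be told apart by their sequence. Ldhb (chromosome 6, 142490249 to 142507957, minus strand) and Ldha (chromosome 7, 46841475 to 46855627, plus strand) are 71.5% identical over their aligned coding bases, and their longest identical run is 18 bases. In the stretch below, coding bases 57 to 116 of Ldhb and 54 to 113 of Ldha, the capitals mark the 16 of 60 bases that differ.
Ldhb: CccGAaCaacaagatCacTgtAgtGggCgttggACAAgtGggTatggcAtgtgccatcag
Ldha: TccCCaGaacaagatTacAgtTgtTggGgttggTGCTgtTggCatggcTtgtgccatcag
Over all isozyme and subunit pairs described here, the longest identical coding run was 27 bases, in Hk1 and Hk2.

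**Figure D2:**
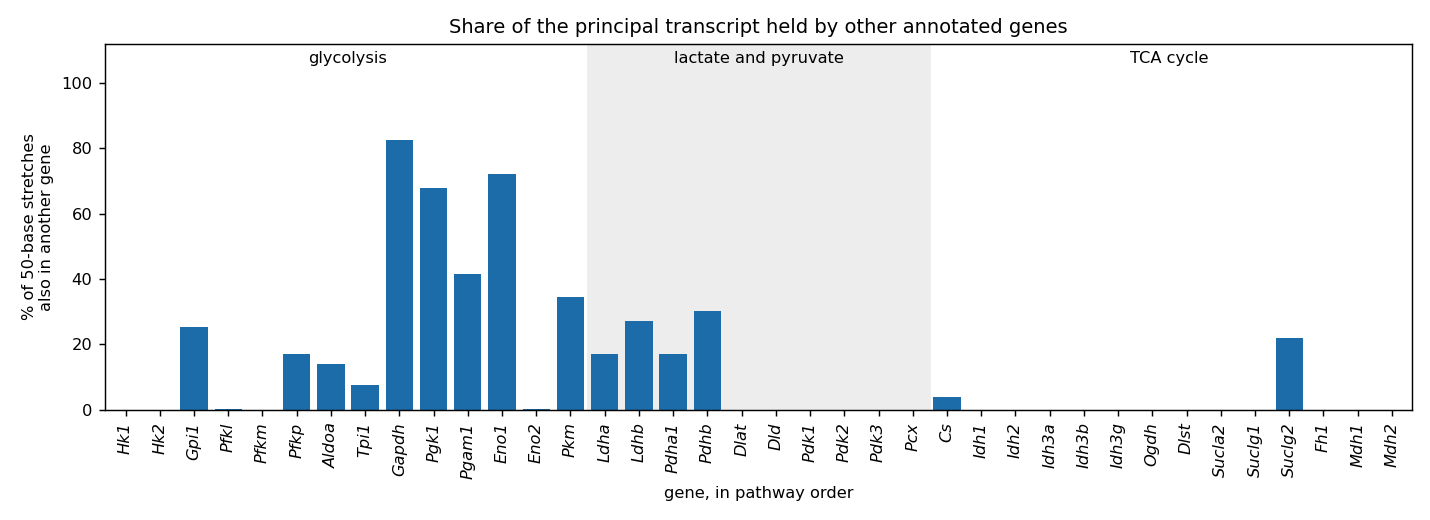
Percentage of the 50-base stretches of each gene's principal transcript that another annotated gene also holds, in pathway order. Gapdh, Eno1 and Pgk1 stand highest at 82.5%, 72.2% and 68.0%, and most TCA cycle genes are at 0.

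Pairs of isozymes or subunits, and the pair of Pcx and Pdha1, whose enzymes both act on pyruvate, were compared as log2 ratios of CPM per kilobase within each library. A limma fit was made over all genes against the second gene of each pair, two-sided, with Benjamini-Hochberg adjustment over the 12097 genes compared with it, at 0.05. Of 15 pairs, 14 passed. Almost any gene differs from any other in level, so each pair is given with the percentage of all genes that passed against the same second gene, and the size of the ratio carries the result. With 3 libraries, the smallest p of an exact sign-flip test is 0.25. The divisor matters as well, so ratios are also given under 4 other treatments of length, for most pairs as a range. These are none, the mean transcript length, the principal transcript length, and the positions of the principal transcript not shared with another gene.

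At the entry to glycolysis, Hk1 and Gpi1 lay above the median of all genes tested and Hk2 far below it. Hk1, the main hexokinase of brain, which phosphorylates glucose, had 8.78, 9.33 and 8.62 CPM per kilobase in replicates 1, 2 and 3, and Hk2, the hexokinase prominent in muscle and many tumours, had 0.229, 0.161 and 0.368. Hk1 lay far above Hk2 in each library, and Hk2 rested on 16, 13 and 31 counts. The ratio was 33.7-fold (log2 5.07 ± 0.60 SD, SE 0.43, limma adjusted p = 9.42e-32), and 94.5% of all genes differed from Hk2. It was 48.1- to 87.2-fold under the other divisors. Hk1 made up 97.2 ± 1.22% of the hexokinase level of both genes. Gpi1, which converts glucose phosphate to fructose phosphate, was at 40.8 ± 2.21 CPM per kilobase.

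Phosphofructokinase, the committed step of glycolysis, was mostly the muscle and platelet types, and the liver type was low. Pfkl, the liver type, had 1.14, 2.09 and 1.92 CPM per kilobase in replicates 1, 2 and 3, and Pfkm, the muscle type, had 27.8, 33.0 and 30.4. Pfkl was at 0.0554 times the level of Pfkm (log2 -4.17 ± 0.36 SD, SE 0.22, limma adjusted p = 1.95e-09), and at 0.0851 to 0.177 times under the other divisors. Pfkp, the platelet type, had 10.8, 12.6 and 12.7 CPM per kilobase, below Pfkm in 3 of 3 libraries (log2 -1.34 ± 0.068 SD, SE 0.11, limma adjusted p = 1.26e-07). Of all genes, 95.9% differed from Pfkm. The order of Pfkp and Pfkm turned round with the length used, with log2 ratios of 0.14 to 0.67 under the other 4 divisors: the union of exons is 13401 bases for Pfkp and 3340 for Pfkm, and the principal transcripts are 4145 and 2879 bases. No order of these 2 genes is drawn from the data.

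The middle steps held the most abundant of the glycolytic messages. Aldoc, an aldolase gene used as an astrocyte marker and not among the 38, had 124, 210 and 152 CPM per kilobase in replicates 1, 2 and 3, and Aldoa, the broadly expressed aldolase, which splits fructose bisphosphate, had 389, 441 and 418. Aldoa was the higher gene in every library, with Aldoc at 0.381 times its level (log2 -1.39 ± 0.30 SD, SE 0.11, limma adjusted p = 3.33e-08, 99.9% of all genes passing against Aldoa). Under the other divisors Aldoc was at 0.196 to 0.427 times Aldoa. Here, and in Ldhb over Ldha, Pdk3 over Pdk1 and Idh2 over Idh1 below, the limma error was smaller than the pair's own spread gives. That error is drawn mostly from all genes, so it can be too small for such pairs. Gapdh, which oxidises glyceraldehyde 3-phosphate, had 747, 837 and 805 CPM per kilobase, and dividing by the positions not shared with another gene gives 13707 CPM per kilobase. Tpi1, which interconverts the triose phosphates, was at 65.1 ± 3.13 CPM per kilobase, and 7.51% of its stretches were shared.

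Lower glycolysis contained the widest gap of all 15 pairs per kilobase of union exon, though not per unshared position. Pgk1, which forms ATP from bisphosphoglycerate, was at 61.5 ± 4.80 CPM per kilobase and Pgam1, the mutase that follows, at 26.6 ± 1.63. Eno2, the neuron-specific enolase, had 128, 143 and 140 CPM per kilobase in replicates 1, 2 and 3, and Eno1, the enolase of most other cells, had 0.984, 0.987 and 0.791. Eno2 was 145-fold above Eno1 (log2 7.18 ± 0.22 SD, SE 0.17, higher in 3 of 3 libraries), with a limma adjusted p too small for the computer to tell from 0, and 87.0% of all genes differed from Eno1. Eno2 made up 99.3 ± 0.102% of the summed level of both genes. The retrogene Eno1b holds 70.5% of the stretches of Eno1, and reads shared with it cannot be assigned. Eno1b itself had 34, 43 and 28 counts, and per unshared position the ratio of Eno2 to Eno1 was 25.4-fold. Pkm, the pyruvate kinase gene, was at 114 ± 4.24 CPM per kilobase. Its splice forms are counted together, and 34.4% of its stretches were shared.

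Lactate dehydrogenase in these libraries was mainly the Ldhb type. Ldhb, the heart-type subunit that favours turning lactate to pyruvate, had 633, 624 and 571 CPM per kilobase in replicates 1, 2 and 3, and Ldha, the muscle-type subunit that favours lactate formation, had 56.5, 76.0 and 85.9. Ldhb was the higher gene in every library, with log2 ratios of 3.49, 3.04 and 2.73. Ldhb was 8.49-fold above Ldha (log2 3.08 ± 0.38 SD, SE 0.21, limma adjusted p = 2.74e-50, 97.6% of all genes passing against Ldha). The ratio was 4.02- to 6.25-fold under the other divisors. Ldhb made up 91.8%, 89.1% and 86.9% of the summed level in replicates 1, 2 and 3.

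The pyruvate dehydrogenase complex was well represented in all its parts. Pdha1, the alpha subunit of the decarboxylating component, had 17.1, 16.9 and 16.2 CPM per kilobase in replicates 1, 2 and 3, and Pdhb, its beta subunit, had 57.7, 56.2 and 54.0. The products join in 1 heterotetramer, and the message of Pdha1 was at 0.299 times that of Pdhb per kilobase (log2 -1.74 ± 0.013 SD, SE 0.088, limma adjusted p = 1.21e-09, 98.6% of all genes passing against Pdhb). Under the other divisors it was at 0.127 to 0.289 times. Dlat, the acetyltransferase core, was at 65.4 ± 1.70 CPM per kilobase, and Dld, the dehydrogenase shared with the oxoglutarate complex, at 50.9 ± 4.79. Pcx, pyruvate carboxylase, which makes oxaloacetate and in brain is known from astrocytes, had 0.431, 0.481 and 0.716 CPM per kilobase, the lowest of the lactate and pyruvate genes. Pcx was at 0.0336 times the level of Pdha1 (log2 -4.90 ± 0.41 SD, SE 0.28, limma adjusted p = 1.96e-08, 94.2% of all genes passing against Pdha1), and at 0.0248 to 0.0427 times under the other divisors.

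Among the kinases that phosphorylate and inhibit pyruvate dehydrogenase, Pdk2 dominated. Pdk2 had 91.1, 108 and 93.8 CPM per kilobase in replicates 1, 2 and 3, and Pdk1 had 5.46, 7.69 and 5.86. Pdk2 was 15.5-fold above Pdk1 (log2 3.95 ± 0.13 SD, SE 0.20, limma adjusted p = 4.00e-82, 83.4% of all genes passing against Pdk1), and 6.30- to 14.7-fold above it under the other divisors. It made up 83.4 ± 2.14% of the summed level of the 3 kinases. Pdk3, an X-linked kinase, had 14.4, 10.05 and 14.4 CPM per kilobase, above Pdk1 in 3 of 3 libraries but by log2 1.40, 0.39 and 1.30. The mean log2 ratio of Pdk3 to Pdk1 was 1.03 ± 0.55 SD (SE 0.21, limma adjusted p = 1.46e-06). It was -0.57 without division by length, the other direction, and 0.22 with the mean transcript length (limma adjusted p = 0.314), so the order of Pdk3 and Pdk1 depends on the divisor.

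Of the 14 TCA cycle genes, 11 lay above the median of all genes tested, and Idh1, Idh2 and Suclg2 lay below it. Cs, citrate synthase, which starts the cycle, was at 74.7 ± 2.51 CPM per kilobase. The 3 subunits of the NAD-dependent isocitrate dehydrogenase, the form that belongs to the cycle, were close to each other. Idh3a, the catalytic subunit, had 42.5, 41.7 and 37.9 CPM per kilobase in replicates 1, 2 and 3, Idh3g had 58.7, 61.9 and 54.3, and Idh3b had 79.7, 63.6 and 65.6, the last 2 being regulatory. Idh3a was at 0.587 times Idh3b (log2 -0.77 ± 0.15 SD, SE 0.14, limma adjusted p = 1.83e-06, 98.2% of all genes passing against Idh3b), a difference that missed the threshold without division by length (log2 -0.20, limma adjusted p = 0.165). Idh3g was at 0.840 times Idh3b and below it in 3 of 3 libraries, and was the 1 pair that missed the threshold (log2 -0.25 ± 0.20 SD, SE 0.14, limma adjusted p = 0.0811). It passed with the principal transcript length (log2 -0.31, limma adjusted p = 0.0303), with unshared positions and without division by length.

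The NADP-dependent isocitrate dehydrogenases, which make NADPH, lay below all of the NAD-dependent subunits. Idh2, the mitochondrial enzyme, had 1.38, 2.31 and 1.18 CPM per kilobase in replicates 1, 2 and 3, the lowest of the TCA cycle genes, and Idh1, the cytosolic enzyme, had 3.33, 4.07 and 4.60. Idh2 was below Idh1 in each library, at 0.402 times its level (log2 -1.31 ± 0.56 SD, SE 0.28, limma adjusted p = 3.98e-06, 82.5% of all genes passing against Idh1). Under the other divisors Idh2 was at 0.376 to 0.499 times Idh1. Idh1 and Idh2 made up 2.32 ± 0.511% and 0.932 ± 0.345% of the summed level of the 5 isocitrate dehydrogenase genes.

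Of the succinate-forming enzymes, the ATP-linked form was the abundant one. Sucla2, the beta subunit of the ATP-forming succinate-CoA ligase, had 34.0, 28.9 and 32.7 CPM per kilobase in replicates 1, 2 and 3, and Suclg2, the beta subunit of the GTP-forming ligase, had 1.44, 2.87 and 1.53. Sucla2 was 16.9-fold above Suclg2 (log2 4.08 ± 0.66 SD, SE 0.42, limma adjusted p = 1.06e-21, 71.0% of all genes passing against Suclg2), and 14.6- to 23.4-fold above it under the other divisors. Suclg1, the alpha subunit that both ligases use, was at 9.61 ± 0.772 CPM per kilobase, between its partners. Upstream of them, Ogdh, the decarboxylase of the oxoglutarate dehydrogenase complex, was at 59.5 ± 5.44 CPM per kilobase and Dlst, its transferase core, at 11.6 ± 0.727. With the principal transcript length, Ogdh was at 78.7 and Dlst at 40.3 CPM per kilobase. The union of exons is 5456 bases for Ogdh and 9559 for Dlst, so the distance between them depends on the divisor.

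The last steps ended with the most abundant of the TCA cycle messages. Fh1, fumarase, was at 26.5 ± 1.74 CPM per kilobase. Mdh1, the cytosolic malate dehydrogenase of the malate-aspartate shuttle, had 493, 436 and 402 CPM per kilobase in replicates 1, 2 and 3, and Mdh2, the mitochondrial enzyme of the cycle itself, had 110, 114 and 105. Mdh1 was 4.02-fold above Mdh2 (log2 2.01 ± 0.13 SD, SE 0.10, limma adjusted p = 2.25e-10, 99.3% of all genes passing against Mdh2). The ratio kept its direction under the other divisors, at 1.97- to 2.90-fold.

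**Figure D3:**
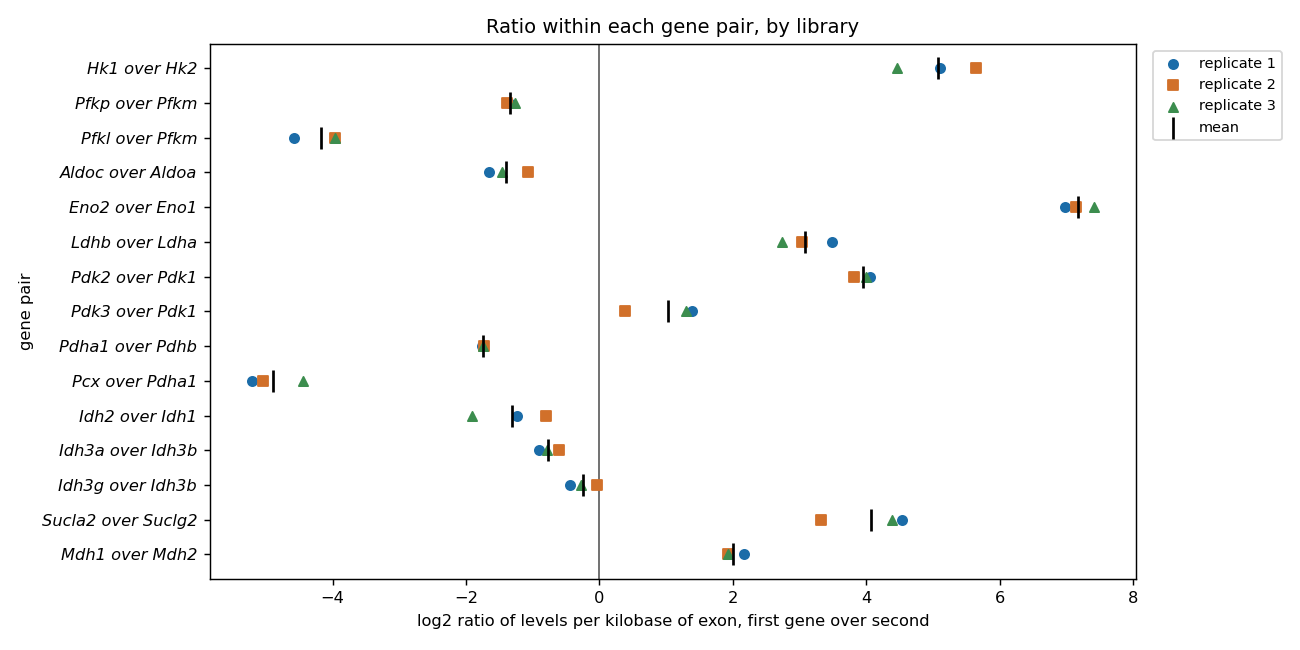
Log2 ratio of the first to the second gene of each of 15 pairs, from levels per kilobase of exon, 1 point per library with a bar at the mean. All 3 libraries lie on the same side of 0 in every pair, with means from 7.18 for Eno2 over Eno1 to -4.90 for Pcx over Pdha1, and the spread is widest in Sucla2 over Suclg2, Hk1 over Hk2, Idh2 over Idh1 and Pdk3 over Pdk1.

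**Figure D4:**
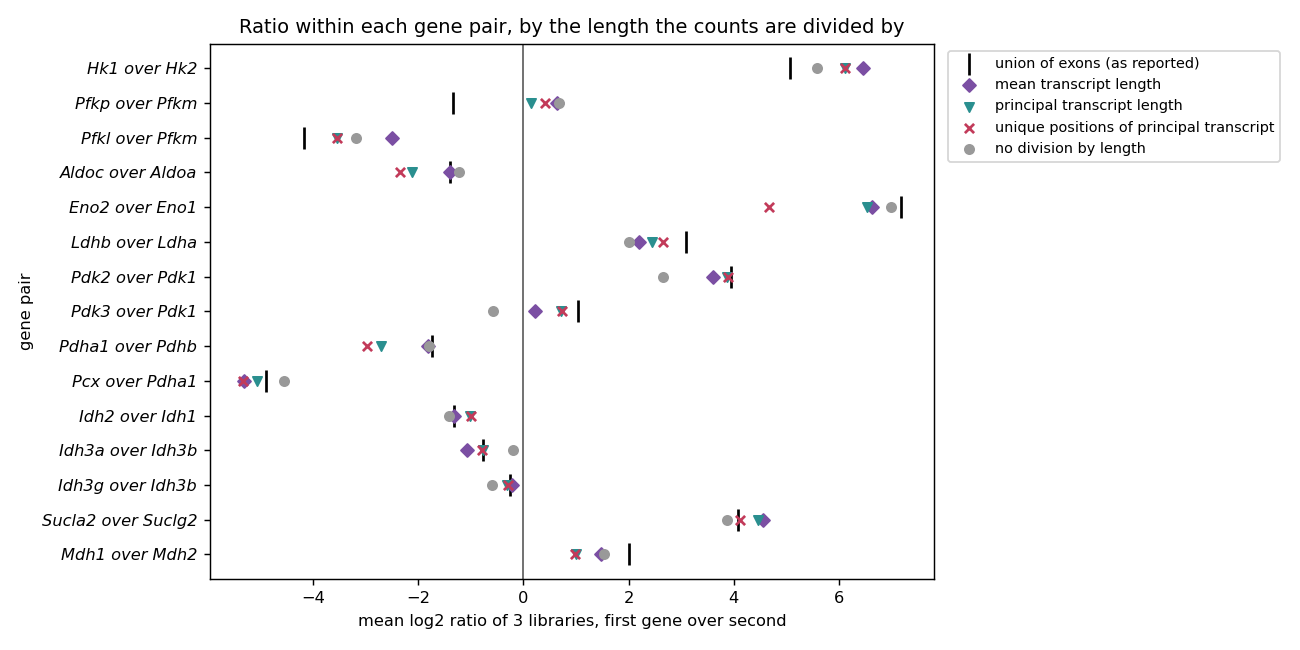
Mean log2 ratio of each pair under 5 treatments of gene length, with black bars for the union of exons. Pfkp over Pfkm and Pdk3 over Pdk1 have points on both sides of 0, and the other 13 pairs stay on 1 side.

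Most of the enzyme genes varied less between replicates than the median gene did. Their median coefficient of variation was 7.92% in CPM, against 15.2% over all 12509 genes past the filter, and 29 of 38 were under 15% (76.3%, against 49.4% of all genes). High counts carry less counting error, and these genes are mostly high, so variation was tested against genes of the same level. The ratio of each gene's edgeR quasi-dispersion to the fitted trend was put to an upper-tail F test, called the edgeR test here. In it, 0 of the 38 genes passed an adjusted p of 0.05, where 12 of 12509 genes did (0.0959%), and DESeq2 marked 0 of the 38 and 28 of all genes (0.224%) as dispersion outliers. Without replicate 2 the edgeR test called 4 genes in all, without robust moderation 5 and without the count filter 66, and 0 of the 38 in each case. At an unadjusted p under 0.05, 1 of the 38 was called, Ldha, against 5.78% of all genes. The median log2 deviation of the 38 genes from their own means was -0.03, 0.04 and -0.05 in replicates 1, 2 and 3, against 0.0013, 0.0011 and 0.00016 over all genes.

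Ldha was the most variable of the 38 genes for its level. It had 187, 252 and 284 CPM in replicates 1, 2 and 3 (quasi-dispersion 5.05 times the trend, edgeR unadjusted p = 0.0139, adjusted p = 0.702), lowest in replicate 1 and highest in replicate 3. Its partner Ldhb had 994, 980 and 897 CPM, which is the other order. Several marker sums were, like Ldha, lowest in replicate 1 and highest in replicate 3. The 9 neuronal markers summed to 39881, 42721 and 46176 CPM and the 5 glutamatergic markers, all detected, to 6124, 7416 and 8194 CPM. Snap25, at 31413, 33075 and 36034 CPM, and Camk2a, at 5512, 6683 and 7382 CPM, made up most of these sums. Tubb3 ran the other way, at 73.7, 69.9 and 55.5 CPM. Nefm, Eno2 and Neurod6 were highest in replicate 2, and Stmn2 was lowest there. The other members of both lists rose from replicate 1 to replicate 3. The 3 somatostatin markers, all detected, summed to 546, 692 and 1042 CPM, though 1 of them, Crhbp, ran the other way at 45.7, 41.1 and 39.1 CPM. The 4 parvalbumin markers, all detected, summed to 3036, 2329 and 2159 CPM, and the 5 nuclear non-coding RNAs, all detected, to 10651, 3527 and 2431 CPM, both in the order of Ldhb. The 12 astrocyte markers, Aldoc among them, all detected and none at 0, summed to 2936, 4665 and 3995 CPM, lowest in replicate 1 as Ldha was but highest in replicate 2. Within this list, Gfap, Aldh1l1 and Fgfr3 were highest in replicate 1 and S100b in replicate 3, and the other members in replicate 2. The part of these lists in the levels of Ldha and Ldhb was not tested.

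Suclg2 and Pdk1 followed in the ratio to the trend, at 2.27 and 1.90 times (edgeR adjusted p = 0.969 and 0.979). Suclg2 had 6.66, 13.3 and 7.09 CPM in replicates 1, 2 and 3, highest in replicate 2. Pdk1 had 42.5, 59.8 and 45.6 CPM, also highest in replicate 2. The astrocyte sum given above was highest in replicate 2 too. So was that of the 8 oligodendrocyte markers, 7 detected and none at 0, at 567, 668 and 489 CPM. Among these markers, Mbp was highest in replicate 1, and Mag and Opalin were highest in replicate 3 and lowest in replicate 2. The other members were highest in replicate 2. The sums for microglia and for endothelial and mural cells were also highest in replicate 2, at 61.9 and 32.5 CPM. Of the microglial markers, only Csf1r and Aif1 were highest there. Tyrobp was highest in replicate 1, and Cx3cr1, C1qa, C1qb, P2ry12 and Trem2 in replicate 3. The median log2 deviation of the microglial markers past the filter was -0.21, -0.0017 and 0.21 in replicates 1, 2 and 3. Among the endothelial and mural markers, Cldn5 and Pecam1 were highest in replicate 1 and Pdgfrb and Vtn in replicate 3. The other members were highest in replicate 2. The erythroid sum was highest in replicate 2 as well, at 3.91 CPM with 0 of 3 markers detected, though Alas2 was highest in replicate 3. The oligodendrocyte precursor markers summed to 58.96, 74.02 and 74.15 CPM in replicates 1, 2 and 3, nearly equal in replicates 2 and 3. Pdgfra and Cspg4 were highest in replicate 3, Olig1 and C1ql1 in replicate 2 and Olig2 in replicate 1. Of the 4 choroid plexus markers, Ttr had 0, 569 and 0 counts, Folr1 had none, and Kl and Clic6 were highest in replicate 3. The part of these in the levels of Suclg2 and Pdk1 was not tested. By library, 17 of the 38 genes were highest in replicate 2, 12 in replicate 1 and 9 in replicate 3, where all genes split as 32.4%, 36.6% and 30.99%.

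**Figure D5:**
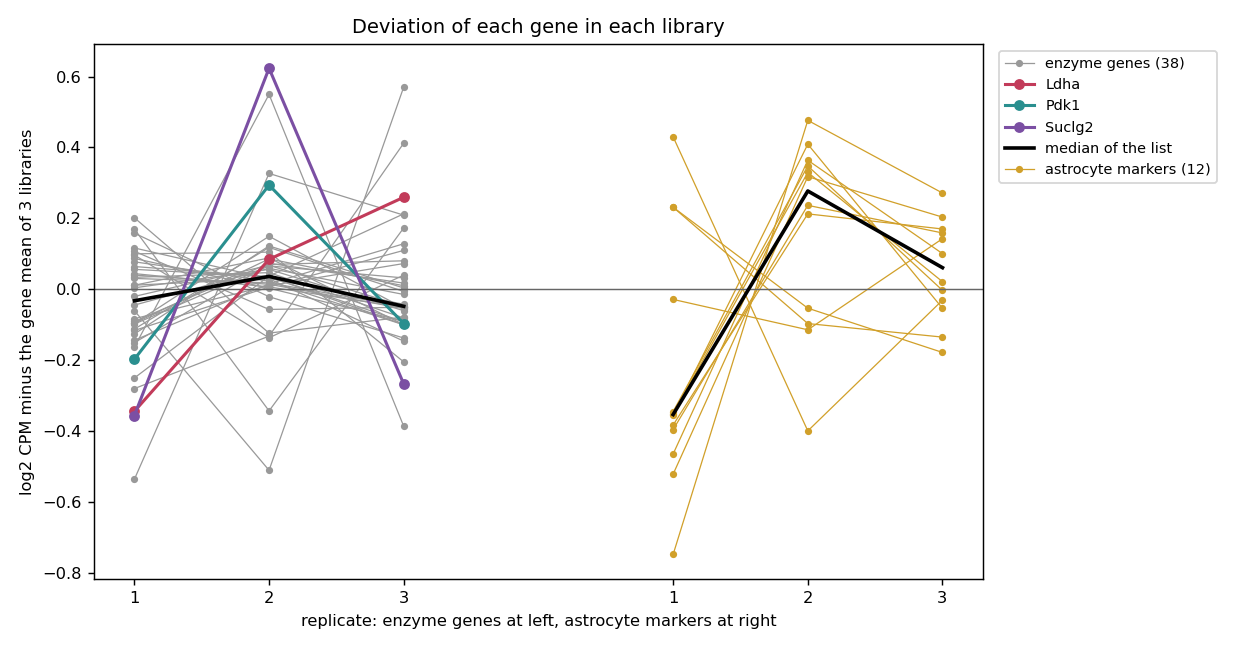
Log2 CPM of each gene minus its own mean over the 3 libraries, 1 line per gene, with the 38 enzyme genes at left and the 12 astrocyte markers at right, and black lines for the median of each list. The medians of the enzyme genes are -0.03, 0.04 and -0.05 and those of the astrocyte markers -0.35, 0.28 and 0.06, and the coloured lines are Ldha, Suclg2 and Pdk1.

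Further genes of the same pathways, 56 in number, show what surrounds the enzymes, and 43 of them reached 1 CPM in all libraries. The 7 TCA cycle genes outside the list were all detected. Of 11 genes of shuttles and of anaplerosis, the supply of cycle intermediates, 10 were detected. Among them the cytosolic aspartate aminotransferase Got1, which works with Mdh1 in the malate-aspartate shuttle, was highest at 489.5 ± 24.6 CPM per kilobase, and Pck1 had no count. Of 16 further glycolytic isozymes 7 were detected, Aldoc being the highest at 162 ± 44.0 CPM per kilobase, and the testis genes Pgk2 and Ldhc had 0 counts, as did Pdha2, which allows up to 0.213 to 0.256 CPM per library by counting error alone.

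The carriers that feed these pathways lay lower. Of 7 carriers of glucose, lactate and pyruvate, 6 were detected, the highest being the neuronal glucose transporter Slc2a3 at 9.87 ± 0.923 CPM per kilobase. Slc2a1, the glucose transporter of glia and endothelium, was at 9.67 ± 0.388, within that spread, and was the higher of both in replicate 1. Without division by length, Slc2a3 was the higher in every library, at 71.5 ± 6.69 CPM against 33.9 ± 1.36 CPM. The union of exons is 7245 bases for Slc2a3 and 3506 for Slc2a1, so the distance between them depends on the divisor. The other genes that act on pyruvate dehydrogenase were led by the phosphatase Pdp1 at 28.7 ± 0.893 CPM per kilobase, with 5 of 6 detected. The fructose bisphosphate regulators were led by Pfkfb2 at 5.09 ± 0.508, with 3 detected of the 4 found in the tables, and all 5 glycogen enzymes were detected, with the brain glycogen phosphorylase Pygb the highest at 9.94 ± 2.44. Of the 44 that passed the filter, 0 varied between libraries at an edgeR adjusted p of 0.05 (0.0959% of all genes), and 6 did at an unadjusted p under 0.05 (13.6%, against 5.78% of all genes), among them Aldoc with 403, 685 and 497 CPM in replicates 1, 2 and 3.

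By position, chromosome 6 carries 7 of them (18.4%, against 5.36% of the genes in the tables that have a position), namely Hk2, Tpi1, Gapdh, Eno2, Ldhb, Suclg1 and Suclg2. Of these, Eno2 (124760053 to 124769673), Tpi1 (124810586 to 124814296) and Gapdh (125161715 to 125166467) lie close together, all on the minus strand, while Hk2 and Suclg2 are among the lowest of the 38. The X chromosome carries Pgk1, Pdha1, Pdk3 and Idh3g, 4 of 38 (10.5%, against 4.28%).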

How the data were processed

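RNA from 3 immunoprecipitates of 1 group was measured by RNA sequencing, and groups and replicate numbers came from the titles. The authors deposited a table per library with the raw count of reads for each gene symbol. STAR 2.0.0e, HTSeq and the mm10 build are named in the submitters' processing notes. No source used here gives the annotation release, the counting mode or the library kit. The share of tallied reads that fell in genes was 61.9%, 67.6% and 70.7% in replicates 1, 2 and 3. The rows for reads without a gene (12.8% to 16.4%), ambiguous reads (2.37% to 2.65%) and non-unique alignments (13.8% to 19.4%) entered neither library sizes nor tests. The row named unknown held 0 counts.

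TMM-scaled library sizes (edgeR 4.0.16, R 4.3.3) gave CPM, log2 CPM (prior count 2) and CPM per kilobase of union exon from GENCODE M21 (GRCm38, the assembly that mm10 names). Rows were matched by symbol for 23155 genes and by an older symbol for 736, while 8640 rows had no match. The count filter was filterByExpr with a minimum count of 10, which 12509 genes passed, 96.7% of them with a length. Pairs were tested with intercept-only limma 3.58.1 fits and variation with an F test on quasi-dispersions from glmQLFit (robust), and DESeq2 1.42.0 was an alternative. Most of the limma error comes from the spread of all genes, which makes the error too small for a pair with a wide spread of its own. The values of the second gene also enter every row of its fit, so the rows are not independent. The sizes of limma p-values from different second genes therefore cannot be compared. All 3 pairs of libraries differed beyond sampling noise (chi-square 12.3 to 28.5 per degree of freedom). The limit that a count of 0 allows, 3 counts, is 0.213 to 0.256 CPM. Intervals and such limits cover counting error only.

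The scripts were tested on simulated data. The 38 genes, the pairs and the lists of other genes were chosen with earlier results of these data known. Per-library values are given for genes of the pairs, for the highest and lowest gene of each pathway, and, since no gene passed the variation test, for the 3 with the largest ratio to the trend. Of the companions, the highest of each list and those in a pair are named, and genes with 0 counts were named after their values were seen. The values of 1 companion gene are not reported here. Alternatives were other divisors, scalings, filters, prior counts and moderation, and leaving out each replicate. The lengths and unshared positions of the principal transcript were added as divisors after seeing the data.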

Additional observations from a re-analysis of the deposited data

How the results depend on the processing

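Of the 15 pairs, 11 kept their direction and their side of the threshold under all 11 alternatives run. The log2 ratio of Pfkp to Pfkm, -1.34 with union exons, was 0.67 without division by length (limma adjusted p = 3.65e-07), 0.64 with the mean transcript length, 0.14 with the principal transcript length (limma adjusted p = 0.188) and 0.40 with unshared positions. That of Pdk3 to Pdk1 was -0.57 without division by length and 0.22 with the mean transcript length, that of Idh3a to Idh3b was -0.20 without division by length, and that of Idh3g to Idh3b passed the test at -0.59 without division by length, -0.31 with the principal transcript length and -0.30 with unshared positions. The median level of the 38 genes was 160 CPM without division by length, and 110, 72.3 and 75.8 CPM per kilobase with the mean transcript length, the principal transcript length and unshared positions. These divisors differ in size by construction. The median percentile of the 38 genes among all genes tested stayed at 89.6 to 94.4. The count of genes that varied between libraries, 12, became 66 without the count filter, 5 without robust moderation and 28 with DESeq2, and was 4 to 10 with 1 replicate left out. None of the 38 genes was called in any of these. The planned divisor of positions that occur once in the genome was not run, because no genome sequence was used here. No paired analysis was possible because the design has only 1 group. Counts per library of the genes under 2 CPM per kilobase ran from 13 to 31 in Hk2 up to 89 to 189 in Pfkl, which limits their precision.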
